A study of Homo sapiens with 40 samples.

Results

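GDC0941 (pictilisib), an inhibitor of the class I phosphoinositide 3-kinases (PI3K), was given to A2058 melanoma cells at the lowest of its 3 levels, and the transcriptome was set against that of cells given the solvent DMSO. The 8 arrays were taken by their titles, 4 titled with GDC0941 (spelled GCD0941 there) at IC50 and 4 titled with DMSO, out of 40 arrays in 10 groups of 4. The other groups held GDC0941 at IC90 and at a level named max, and the PI3K inhibitors BKM120 (buparlisib) and BEZ235 (dactolisib, which also inhibits the kinase mTOR), each at 3 levels. The line, an established human melanoma line with an activating BRAF mutation, was treated once for 24 h and each group had 4 biological replicates, so the p-values measure the spread between cultures of 1 line. Labels name the levels but give neither molar concentrations nor the response that the IC values refer to. RNA was amplified from 50 ng and hybridised to 1-colour oligonucleotide arrays, and the deposited values are scaled linear intensities.

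PI3K makes the membrane lipid that recruits AKT. Active AKT holds FOXO transcription factors outside the nucleus, and with mTOR complex 1 it promotes the processing of SREBP factors, which drive sterol and fatty acid synthesis, and the translation of ATF4, which drives amino acid synthesis. The MITF factor controls pigment genes in melanocytes, and melanoma cells move between states with high MITF output and dedifferentiated states with high NGFR, AXL and YAP output. These pathways set the order of the results.

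All values below are intensities per array, in the order of replicates 1 to 4, and changes are differences of mean log2(intensity + 16), GDC0941 at IC50 minus DMSO, so that changes of genes near or under 16 intensity units are compressed. A gene rose or fell when limma gave it an adjusted p under 0.05 over the 11865 genes tested. Defining markers of the melanocyte lineage were bright on all 8 arrays. SOX10 read 1702 to 1814 with GDC0941 and 1575 to 1664 with DMSO, MITF 2009 to 2140.1 and 1592 to 1844, and S100B 2178 to 2383 and 1894 to 2182 (lowest to highest of 4 arrays). Of 28 markers of leukocytes, endothelium, epithelium, fibroblasts, liver and blood on the array, 16 lay at or under 16 units on every GDC0941 and every DMSO array, among them PTPRC, CD3D, EPCAM and CDH5. Their summed level was 2707 to 2967 units in the GDC0941 group and 2812 to 2964 in the DMSO group, most of it from LUM and KRT18. Replicate 2 of DMSO had the highest median intensity of the 8 arrays, 15.3, against 11.6 to 12.7 on the GDC0941 arrays and 12.1 to 12.9 on the other DMSO arrays. It also lay apart from them on the second principal component, at -11.7 against 3.23 to 5.62. The exact permutation tests of 7 measures (3′ to 5′ ratios, median, dim share and top share) between the groups had adjusted p of 0.9 to 0.971, where 4 against 4 arrays allow no raw p under 0.0286. With that floor no measure could pass on its own after adjustment over the 7, so these tests do not show equal quality. One array of BEZ235 at IC50 had an ACTB 3′ to 5′ ratio of 27.2, against 1.58 to 2.33 on the other 39. It enters the estimate of spread shared by all groups, so counts without it (39 arrays) are given beside those of the 40. The arrays measured RNA of whole cultures, in which fewer cells of a kind and less RNA per cell cannot be told apart.

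GDC0941 at IC50 changed many genes by small amounts. With 40 arrays 1894 of 11865 genes (16%) changed, 1164 upward (9.81%) and 730 downward (6.15%), and without the degraded array 2863 changed (24.1%), 1716 upward (14.5%) and 1147 downward (9.67%). Among those 1894 genes, 415 changed by less than 0.25 on the log2 scale, 1086 by 0.25 to 0.5, 370 by 0.5 to 1 and 23 by at least 1, which is 2-fold (0.194% of the genes tested). Of these last genes 10 rose and 13 fell. In 2728 genes (23.0%) the ranges of the 2 groups did not overlap. The first principal component of the 8 arrays held 46.6% of their variance and put all 4 GDC0941 arrays on one side and all 4 DMSO arrays on the other. Correlations of log2 values within a group were 0.9934 to 0.9958 (GDC0941) and 0.9939 to 0.9955 (DMSO), and those between the groups 0.9855 to 0.9905, as a description of 6, 6 and 16 pairs of arrays. The plot of all genes shows both directions across the range of signal.

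**Figure D1:**
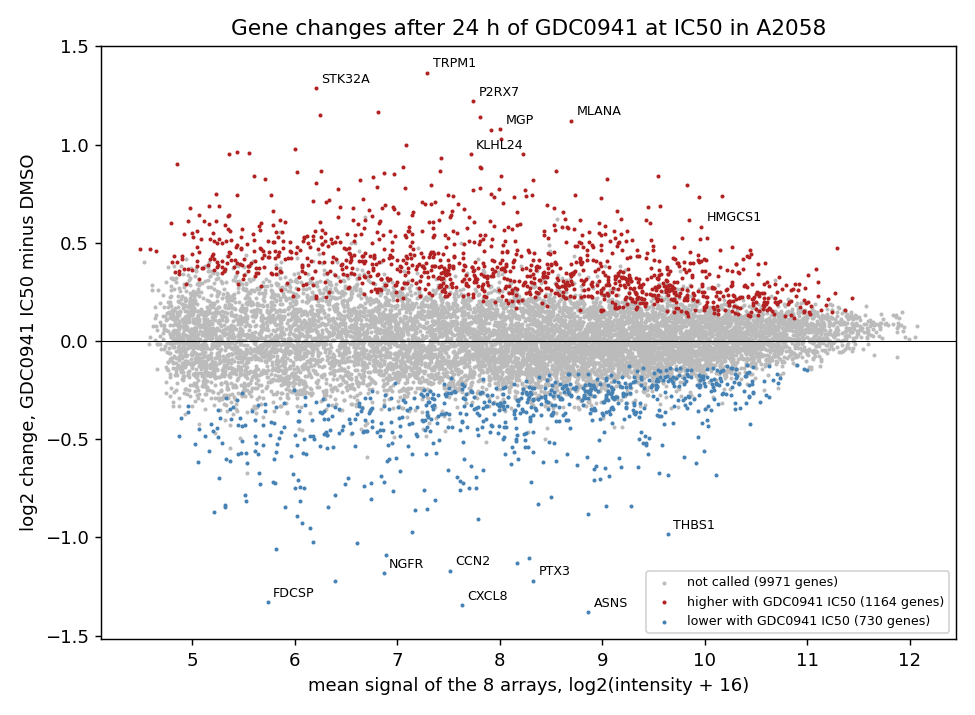
Log2 change (vertical axis, GDC0941 IC50 minus DMSO) against the mean log2(intensity + 16) of the 8 arrays (horizontal axis) for 11865 genes, with the 1164 that rose in red, the 730 that fell in blue and the rest in grey. Most coloured points lie within 0.5 of 0, and only 23 reach a change of 1.

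Promoters are printed for 5 genes that rose or fell in the groups described below, as the 250 bases before the start site in the RefSeq annotation of GRCh38.p14, read along the gene's strand. Capitals mark matches to a motif, searched on both strands. Such a match is a description of the letters, not a site shown to be used. TYR encodes the rate-limiting enzyme of melanin synthesis (chr11:89177625-89177874, plus strand, M-box TCATGTG, found in 2.58% of 27305 promoters of that length). SREBF2 encodes the factor that drives cholesterol synthesis (chr22:41832855-41833104, plus strand, sterol response element TCACCCCAC, in 0.348%). ASNS, with the largest fall, encodes asparagine synthetase (chr7:97872409-97872658, minus strand, amino acid response element TGATGNAAN, in 3.18%). CCN2 is a textbook target of YAP and TEAD (chr6:131951373-131951622, minus strand, TEAD motif GGAATG, in 11.9%). CXCL8 encodes interleukin 8 (chr4:73740319-73740568, plus strand, AP-1 motif TGAGTCA, in 4.16%, and NF-kB motif GGAATTTCC, in 0.428%).
TYR: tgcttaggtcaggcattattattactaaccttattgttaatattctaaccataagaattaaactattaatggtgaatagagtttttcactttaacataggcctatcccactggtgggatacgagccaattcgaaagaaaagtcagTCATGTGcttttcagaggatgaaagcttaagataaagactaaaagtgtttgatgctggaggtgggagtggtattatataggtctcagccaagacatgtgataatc
SREBF2: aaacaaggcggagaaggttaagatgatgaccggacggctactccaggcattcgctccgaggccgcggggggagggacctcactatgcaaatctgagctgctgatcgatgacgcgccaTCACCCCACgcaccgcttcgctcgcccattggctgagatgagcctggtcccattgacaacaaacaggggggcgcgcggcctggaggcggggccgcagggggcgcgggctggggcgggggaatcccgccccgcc
ASNS: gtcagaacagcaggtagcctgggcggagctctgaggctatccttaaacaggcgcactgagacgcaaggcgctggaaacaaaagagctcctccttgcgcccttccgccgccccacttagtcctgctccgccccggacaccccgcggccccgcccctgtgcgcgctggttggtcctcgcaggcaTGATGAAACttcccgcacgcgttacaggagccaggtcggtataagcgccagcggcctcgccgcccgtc
CCN2: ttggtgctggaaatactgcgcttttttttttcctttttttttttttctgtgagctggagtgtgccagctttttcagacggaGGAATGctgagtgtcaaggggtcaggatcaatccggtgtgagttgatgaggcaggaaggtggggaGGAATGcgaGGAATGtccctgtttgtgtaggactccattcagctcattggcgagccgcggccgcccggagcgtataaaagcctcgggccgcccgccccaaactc
CXCL8: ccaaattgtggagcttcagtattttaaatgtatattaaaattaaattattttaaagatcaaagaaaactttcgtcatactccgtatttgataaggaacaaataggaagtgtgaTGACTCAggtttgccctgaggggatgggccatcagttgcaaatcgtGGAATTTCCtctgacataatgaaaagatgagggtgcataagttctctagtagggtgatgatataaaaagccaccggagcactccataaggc

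TRPM1, STK32A and P2RX7 rose most, and 10 genes rose at least 2-fold. TRPM1, a cation channel of melanocytes, read 221, 264, 296 and 177 with GDC0941 and 61.5, 105, 79.6 and 85.2 with DMSO (log2 change 1.37, SE 0.11, adjusted p = 2.9e-11). MLANA, the melanosomal antigen MART-1, read 610.3, 615, 586 and 574 on the GDC0941 arrays, against 254, 263, 262 and 284 on the DMSO arrays (log2 change 1.12, SE 0.07, adjusted p = 6.6e-15). In both, every GDC0941 array lay above every DMSO array, which was a condition for naming these genes, and MLANA had the narrower spread. P2RX7, an ATP-gated ion channel, read 347, 319.5, 309.6 and 268 with GDC0941 and 107, 137, 123 and 130.2 with DMSO (log2 change 1.22, SE 0.09, adjusted p = 5.1e-12), while a second bright probe set of this gene moved by 0.32 only. MGP, a secreted inhibitor of calcification, read 319, 379, 385 and 349 on the GDC0941 arrays, against 158, 171, 158 and 156 on the DMSO arrays (log2 change 1.08, SE 0.08, adjusted p = 9e-13). SERPINF1, a secreted serpin known as PEDF, read 334, 330.1, 341 and 334 with GDC0941 and 139, 170.3, 141 and 153 with DMSO (log2 change 1.08, SE 0.08, adjusted p = 5.1e-12). By the same condition no DMSO array reached the lowest GDC0941 array. The kinase STK32A (1.29), the carboxypeptidase inhibitor LXN (1.17), FAXDC2 (1.15), CRYL1 (1.14) and the protease PRSS33 (1.03) were the other genes to rise at least 2-fold. Below 2-fold came NSG1 (1.00), the semaphorin receptor PLXNC1 (0.98), the selenium carrier SELENOP (0.96), the retinaldehyde-binding protein RLBP1 (0.96), the inflammasome adaptor PYCARD (0.95), KRTAP19-1 (0.95), KLHL24 (0.95), BAAT (0.93) and YPEL3 (0.89). PLXNC1 was not called with the mean over its probe sets. XG, the carrier of a blood group antigen, rose by 0.90 at low intensities, 15.1, 82.2, 12.6 and 11.5 on the GDC0941 arrays, against 5.3, 7.2, 3.1 and 4.8 on the DMSO arrays, with replicate 2 of GDC0941 far above the rest.

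ASNS, CXCL8 and FDCSP fell most, and 13 genes fell at least 2-fold. ASNS read 270.0, 273, 259.6 and 289.7 with GDC0941 and 725, 739, 725 and 757 with DMSO (log2 change -1.38, SE 0.10, adjusted p = 3.1e-12). CXCL8, a chemokine for neutrophils, read 109.7, 119, 85.7 and 123 on the GDC0941 arrays, against 295, 279, 320.4 and 306 on the DMSO arrays (log2 change -1.34, SE 0.19, adjusted p = 2.7e-06). PTX3, a secreted pentraxin of innate immunity, read 184, 203, 199 and 192 with GDC0941 and 464, 506, 454 and 474 with DMSO (log2 change -1.22, SE 0.12, adjusted p = 2.1e-09). In these 3 genes the highest GDC0941 array stayed far under the lowest DMSO array, where groups that did not overlap were a condition for naming them. NGFR, a neurotrophin receptor that marks dedifferentiated melanoma cells, read 65.4, 65.9, 49.9 and 65.8 on the GDC0941 arrays, against 169, 154, 155 and 162 on the DMSO arrays (log2 change -1.18, SE 0.14, adjusted p = 4.1e-08). CCN2, the matricellular protein CTGF, read 97.4, 98.0, 93.3 and 141 with GDC0941 and 240.4, 221, 302 and 279 with DMSO (log2 change -1.17, SE 0.13, adjusted p = 2e-08). Replicate 4 of GDC0941 was the highest of its group for CCN2 and still below all DMSO arrays. FDCSP (-1.33), CRISPLD2 (-1.22), the TWEAK receptor TNFRSF12A (-1.13), the matricellular CCN1 (-1.10), the heparin cofactor SERPIND1 (-1.09), B3GALT2 (-1.06), the keratin KRT80 (-1.03) and the interleukin 7 receptor IL7R (-1.02) also fell at least 2-fold. The next were the matrix protein THBS1 (-0.98), whose 5 bright probe sets ran from -1.34 to -0.36, then POTEKP (-0.97), the AP-1 subunit JUN (-0.95), NHS (-0.90), COXFA4L3 (-0.89), MYOF (-0.88) and TINAGL1 (-0.86).

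**Figure D2:**
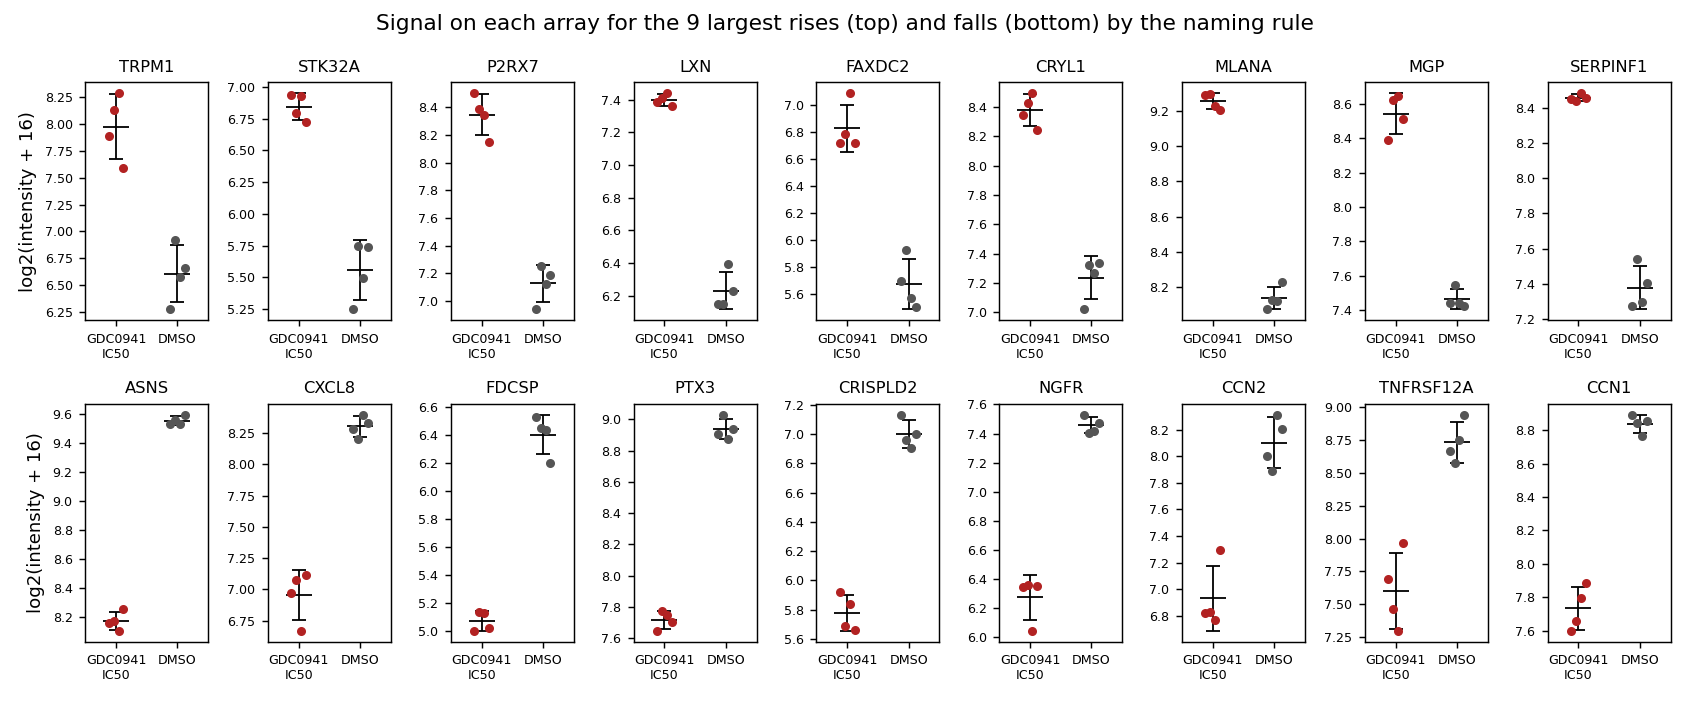
Log2(intensity + 16) on each array for the 9 genes that rose most (top row) and the 9 that fell most (bottom row), GDC0941 at IC50 on the left of each panel and DMSO on the right, with the group mean and SD of 4 arrays. In all 18 panels the 4 points of one group lie beyond the 4 of the other, which the rule that chose these genes required.

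The genes of the targeted pathway itself moved by small amounts. Of 12 subunits of PI3K and lipid phosphatases tested, 4 rose and none fell (median 0.09, against 0.01 over all genes), beside 9.81% and 6.15% of all genes. Without replicate 1, 2 or 3 of GDC0941, or replicate 2 of DMSO, 2 rose. PIK3R3, a regulatory subunit of class I PI3K, read 548, 484, 511 and 393 on the GDC0941 arrays, against 308, 355, 326 and 285 on the DMSO arrays (log2 change 0.57, SE 0.15, adjusted p = 0.0064), and its other bright probe set moved by 0.12. INPP4B, a phosphatase that removes a PI3K product (0.32), the class III kinase PIK3C3 (0.22) and the catalytic subunit PIK3CB (0.17) rose too. The changes of the 8 others ran from -0.18 (PIK3R1, the main regulatory subunit) to 0.20 (PIK3C2B), with PIK3CD at -0.04, PIK3CG at -0.09, PIK3C2A at -0.09, PIK3R4 at 0.09, INPP5E at 0.09 and INPPL1 at 0.08. Among 24 genes of AKT, TSC and the mTOR complexes 4 rose and none fell. DEPTOR, an inhibitory subunit of the mTOR complexes, read 25.3, 31.9, 38.2 and 27.6 with GDC0941 and 11.0, 32.7, 10.5 and 8.7 with DMSO (log2 change 0.61, SE 0.15, adjusted p = 0.0041), with 1 DMSO array at the level of the GDC0941 arrays. TBC1D7, a subunit of the TSC complex (0.60), the kinase SGK1 (0.30) and the AKT phosphatase PHLPP1 (0.27) were the other 3. DEPTOR and PHLPP1 were not called with the mean over probe sets.

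Receptors and adaptors upstream of PI3K moved in both directions. Of 15 tested, 6 rose and 4 fell (median 0.18), beside 9.81% and 6.15% of all genes, and 3 rose without replicate 2 of DMSO. With the stricter filter on dim genes 2 rose and the median was 0.007, and with the mean over probe sets 3 rose and it was 0.036. The stricter filter left 7910 genes to test. All 1322 of the called genes still tested there kept the call, so lower counts with it come from dim members no longer tested. IRS1, the insulin receptor substrate, read 242, 243, 222 and 220.3 on the GDC0941 arrays, against 402, 398, 379.8 and 383 on the DMSO arrays (log2 change -0.72, SE 0.07, adjusted p = 4.3e-10), and the insulin receptor INSR rose (0.52). KIT, the receptor for stem cell factor that melanoblasts need, read 22.7, 46.5, 42.2 and 30.6 with GDC0941 and 15.7, 26.8, 15.1 and 10.8 with DMSO (log2 change 0.63, SE 0.14, adjusted p = 0.00085). The platelet-derived growth factor receptor PDGFRA (0.55), the adaptors GAB2 (0.54) and GAB1 (0.31) and ERBB3 (0.19) rose, whereas FGFR1 (-0.35) and MET (-0.22) fell. The bright probe sets of GAB1 ran from -0.02 to 0.31.

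AKT restrains FOXO factors. Of 39 FOXO factors and targets tested, 19 rose and 3 fell (median 0.23), against 9.81% and 6.15% of all genes. SELENOP, which carries selenium in plasma, read 40.2, 45.6, 50.7 and 41.0 on the GDC0941 arrays, against 13.2, 24.8, 15.8 and 8.0 on the DMSO arrays (log2 change 0.96, SE 0.17, adjusted p = 9.8e-05). KLHL24, an adaptor of a cullin ubiquitin ligase, read 285, 294, 302 and 230.3 with GDC0941 and 149, 143, 130.4 and 120.3 with DMSO (log2 change 0.95, SE 0.09, adjusted p = 6.1e-10), and its 5 bright probe sets ran from 0.22 to 0.95. CCNG2, an atypical cyclin of quiescent cells, read 556, 537, 614 and 503 on the GDC0941 arrays, against 374, 438, 369 and 311 on the DMSO arrays (log2 change 0.55, SE 0.08, adjusted p = 8e-06). For these 3 genes the groups did not overlap, as in 23.0% of all genes, and for SELENOP and KLHL24 that was a condition for naming them. The ubiquitin ligases FBXO32 (0.46) and TRIM63 (0.41), known from muscle atrophy, and the pseudokinase TRIB1 (0.45) rose, and BNIP3 (-0.27) and GADD45A (-0.27) fell. The call of BNIP3 was lost without any 1 of the GDC0941 or DMSO arrays, and that of TRIB1 with the mean over probe sets. The letters of the FOXO motif GTAAACA stood in the 250 bases before 4 of 34 list members with a promoter sequence and in 2.98% of all promoters. MondoA, a glucose-sensing factor, drives TXNIP and ARRDC4. TXNIP read 367, 362, 372 and 338 with GDC0941 and 301, 317, 301 and 301 with DMSO (log2 change 0.23, SE 0.06, adjusted p = 0.0031), whereas ARRDC4 fell (-0.47), and they were the only 2 of 12 genes of that list to change. The call of ARRDC4 was lost without any 1 of the GDC0941 arrays or replicate 2 or 4 of DMSO. That of TXNIP was lost with the mean over probe sets. Of 8 genes that brake mTOR complex 1, SESN1 (0.24) and NPRL2 (0.17) rose and none fell. Both calls were lost without replicate 2 or 3 of GDC0941, or replicate 3 or 4 of DMSO.

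In the BCL2 family, which sets the threshold for apoptosis, 3 of 18 members rose and 3 fell, beside 9.81% and 6.15% of all genes. BMF, a killer protein of the BH3-only class, read 24.9, 35.4, 28.7 and 28.9 on the GDC0941 arrays, against 8.2, 14.3, 16.2 and 10.7 on the DMSO arrays (log2 change 0.69, SE 0.12, adjusted p = 7.3e-05). The killer BAX (0.35) and the survival gene BCL2A1 (0.44), a target of MITF, also rose. PMAIP1, the BH3-only protein NOXA, read 535, 554, 581 and 573 with GDC0941 and 739, 803, 911 and 798 with DMSO (log2 change -0.52, SE 0.12, adjusted p = 0.0017). The survival genes BCL2L1 (-0.40) and MCL1 (-0.23) fell. The call of BCL2L1 was lost without any 1 of the GDC0941 arrays or replicate 2 or 4 of DMSO. It was also lost under quantile normalization and with the mean over probe sets. Changes that missed the threshold were 0.56 for HRK, 0.26 for BCL2L11 (BIM), -0.22 for BCL2L12, 0.18 for BOK and 0.16 for BID, with BAD, BNIP1, BCL2L2, BAK1 and BCL2 between -0.11 and -0.03. The 5 bright probe sets of BCL2L11 ran from -0.29 to 0.26.

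Of 30 pigment and lineage genes of melanocytes tested, 19 rose and 1 fell (median 0.38), beside 9.81% and 6.15% of all genes. Without the degraded array 23 rose, beside 14.5% of all genes. TYR, tyrosinase, whose promoter is printed above, read 1202, 1037, 1194 and 1290.3 on the GDC0941 arrays, against 707, 689, 678 and 621 on the DMSO arrays (log2 change 0.79, SE 0.07, adjusted p = 1.2e-10). PMEL, the fibril protein of melanosomes, read 1211, 1200.2, 1226 and 1063 with GDC0941 and 829, 835, 709 and 888 with DMSO (log2 change 0.52, SE 0.05, adjusted p = 4.6e-09). MITF itself, the factor that binds the M-box, rose by 0.29 (SE 0.04, adjusted p = 2.2e-06). CAPN3 (0.84), the melanosome carriers MLPH (0.64), RAB27A (0.59) and RAB38 (0.37), the melanosome transporters OCA2 (0.54) and SLC45A2 (0.54), the ganglioside enzyme ST8SIA1 (0.49), S100A1 (0.46), the endothelin receptor EDNRB (0.43), SNAI2 (0.40), GPR143 (0.39) and BACE2 (0.13) rose. BCAN, the proteoglycan brevican, fell (-0.40), though it was not called with the mean over its probe sets. The 10 members that missed the threshold, among them the factor SOX10 (0.13), S100B (0.15) and GPNMB (0.15), ran from -0.02 (PAX3) to 0.23 (TYRP1). M-box letters stood before 4 of 21 list members with a sequence, TYR, TYRP1, GPR143 and GPNMB.

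Of 28 genes of the dedifferentiated and invasive state tested, 20 fell and none rose (median -0.44), beside 6.15% and 9.81% of all genes. JUN read 42.7, 32.3, 33.4 and 32.4 on the GDC0941 arrays, against 78.6, 90.9, 81.7 and 79.5 on the DMSO arrays (log2 change -0.95, SE 0.12, adjusted p = 1.1e-07). FOSL1, its AP-1 partner, read 382, 345, 352 and 406 with GDC0941 and 587, 568, 593 and 618 with DMSO (log2 change -0.65, SE 0.08, adjusted p = 4.3e-07). INHBA, which encodes activin A (-0.72), the matrix protein TGFBI (-0.66) and AJUBA (-0.86) fell with NGFR, CCN1, CCN2, THBS1 and MYOF. Targets and regulators of YAP and TEAD overlap this list. Of 34 tested, 11 fell and 1 rose (median -0.12), with AMOTL2 (-0.83), IGFBP3 (-0.69), CRIM1 (-0.67) and tissue factor F3 (-0.63) among those that fell. None rose without replicate 2 or 4 of GDC0941 or replicate 4 of DMSO. TEAD letters stood before 5 of 26 list members with a sequence, and 3 times before CCN2 as the capitals above show. Of 30 genes of TGF-beta, SMAD and ID factors 5 fell, among them TGFBR2 (-0.35), SMURF2 (-0.30) and SMAD3 (-0.28), and 2 rose, among them the helix-loop-helix inhibitor ID2 (0.61), and 1 rose without replicate 3 of GDC0941 or replicate 3 or 4 of DMSO.

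Of 29 chemokines, cytokines and regulators driven by NF-kB, 14 fell and 1 rose (median -0.29), beside 6.15% and 9.81% of all genes. With the stricter filter, which removed dim members from the test, 4 of those left fell and the median was 0.005. IL1B, the cytokine interleukin 1 beta, read 32.7, 43.7, 26.5 and 34.7 on the GDC0941 arrays, against 67.3, 65.1, 66.5 and 57.3 on the DMSO arrays (log2 change -0.68, SE 0.15, adjusted p = 0.0011). CXCL1, a chemokine close to CXCL8, read 602, 694, 575 and 591 with GDC0941 and 1115, 981, 899.6 and 998 with DMSO (log2 change -0.68, SE 0.10, adjusted p = 7.1e-06). The cytokines IL11 (-0.93), LIF (-0.71) and IL6 (-0.57) fell, and IL32 at -0.67 missed the threshold. NF-kB letters stood before 8 of 23 list members with a sequence, and in 0.428% of all promoters. The list was chosen as genes driven by NF-kB, and members were counted whether they fell or not. The part of NF-kB in the falls was not tested. Among 35 genes of MAPK feedback and output, the pathway of the mutant BRAF, 8 fell and 2 rose (median -0.06). CCND1, cyclin D1, read 849.9, 777, 726 and 952 on the GDC0941 arrays, against 1212, 1149.8, 1389 and 1146 on the DMSO arrays (log2 change -0.56, SE 0.11, adjusted p = 0.00016). The ephrin receptor EPHA2 fell (-0.54), and the kinase MAPK3 (ERK1) rose (0.74). Of 24 AP-1 and immediate early factors 6 fell, among them KLF4 (-0.46), KLF10 (-0.41), FOSL2 (-0.34) and ATF3 (-0.35), and 3 rose, among them IER5 (0.30). MYC at 0.35 missed the threshold.

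Of 25 genes of cholesterol synthesis and uptake tested, 17 rose and none fell (median 0.35), beside 9.81% and 6.15% of all genes. HMGCS1, which makes the substrate of HMG-CoA reductase, read 1151, 1234, 1211 and 1226 with GDC0941 and 754, 852, 859 and 743 with DMSO (log2 change 0.58, SE 0.05, adjusted p = 3.5e-10). SREBF2, the factor of the pathway, read 303, 286, 292 and 262 on the GDC0941 arrays, against 198, 169, 206 and 168 on the DMSO arrays (log2 change 0.59, SE 0.08, adjusted p = 3.7e-07). TM7SF2, a sterol reductase, read 119, 119, 118 and 103 with GDC0941 and 70.9, 59.4, 61.7 and 60.2 with DMSO (log2 change 0.72, SE 0.11, adjusted p = 8e-06). The groups were apart in all 3 genes, as in 23.0% of all genes, and the spread was narrow against the change. These genes were picked from the list by the size of their change. HSD17B7 (0.59), LSS (0.51), SQLE (0.50), MSMO1 (0.44), NSDHL (0.42) and ACAT2 (0.39), enzymes along the same route, rose too. The sterol element printed above was found before 1 of 23 members, SREBF2. In fatty acid and glycerolipid synthesis 6 of 22 rose and 1 fell. LPIN1, a phosphatidate phosphatase, read 566, 534, 504 and 517 on the GDC0941 arrays, against 325, 352, 343 and 342 on the DMSO arrays (log2 change 0.62, SE 0.09, adjusted p = 3.7e-06). PNPLA3 (0.71), ACSS2 (0.46), ACACB (0.43), the desaturase SCD (0.37) and the citrate carrier SLC25A1 (0.32) rose, and malic enzyme ME1 fell (-0.31).

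Of 35 ATF4 targets tested, 15 fell and 1 rose (median -0.22), beside 6.15% and 9.81% of all genes. Among the members that the stricter filter left to test, 8 fell. CHAC1, which degrades glutathione, read 27.9, 46.5, 36.6 and 27.3 with GDC0941 and 64.5, 95.5, 62.7 and 68.1 with DMSO (log2 change -0.81, SE 0.12, adjusted p = 2.2e-06). SLC7A11, the cystine importer, read 950.4, 817, 821 and 856 on the GDC0941 arrays, against 1432, 1285, 1435 and 1408 on the DMSO arrays (log2 change -0.68, SE 0.07, adjusted p = 6.3e-10). Both were below all DMSO arrays on every GDC0941 array, where 23.0% of all genes had groups apart in either direction. The glutamine importer SLC1A5 (-0.50), VEGFA (-0.59), STC2 (-0.56) and NUPR1 (-0.48) fell, and GDF15 rose (0.52). DDIT3 (CHOP, -0.31) and SLC3A2 (-0.30) missed the threshold. Response-element letters stood before 4 of 29 list members with a sequence, ASNS, CHAC1, ATF3 and HERPUD1. Of 17 cytosolic tRNA synthetases 3 fell, CARS1 (-0.34), SARS1 (-0.22) and IARS1 (-0.14), and none rose, and 1 or 2 fell with any 1 array left out. Of 19 amino acid transporters 3 rose and 3 fell, with the thyroid hormone and aromatic amino acid carrier SLC16A10 (0.53) and SLC7A8 (0.41) upward, and 1 rose without replicate 3 of GDC0941 or replicate 3 of DMSO. In glycolysis and hypoxia 3 of 36 rose (8.3%) and 5 fell (13.9%), beside 9.81% and 6.15% of all genes. Without replicate 2 or 4 of DMSO 2 genes of this list fell. Without replicate 2, 3 or 4 of GDC0941, or replicate 3 of DMSO, 3 fell. The glucose transporter SLC2A1 fell (-0.63), and the aldolase ALDOC rose (0.43).

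Of 61 lysosomal genes tested, 22 rose and 2 fell (median 0.15), beside 9.81% and 6.15% of all genes. CTSF, a cysteine protease, read 103, 83.0, 119 and 84.0 with GDC0941 and 45.3, 41.8, 54.5 and 58.4 with DMSO (log2 change 0.77, SE 0.15, adjusted p = 0.00023). CTSK (0.57) and CTSH (0.56), proteases of the same family, ARSG (0.60), GNPTG (0.45) and the glucosidase GAA (0.41) rose, whereas IDS (-0.47) and LAMP3 (-0.44) fell, IDS not without replicate 4 of GDC0941 or replicate 1 of DMSO. The E-box CACGTG, which MITF and its relative TFEB bind, stood in the 250 bases before 14 of 43 list members with a sequence and in 6.49% of all promoters. Members were counted whether they rose or not, and the part of those factors was not tested. In autophagy 10 of 42 rose and 1 fell, with TP53INP1 (0.54), TP53INP2 (0.46) and the mitophagy receptor BNIP3L (0.35) at the top. The autophagy median was 0.07, and no autophagy gene fell with any 1 array left out.

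**Figure D3:**
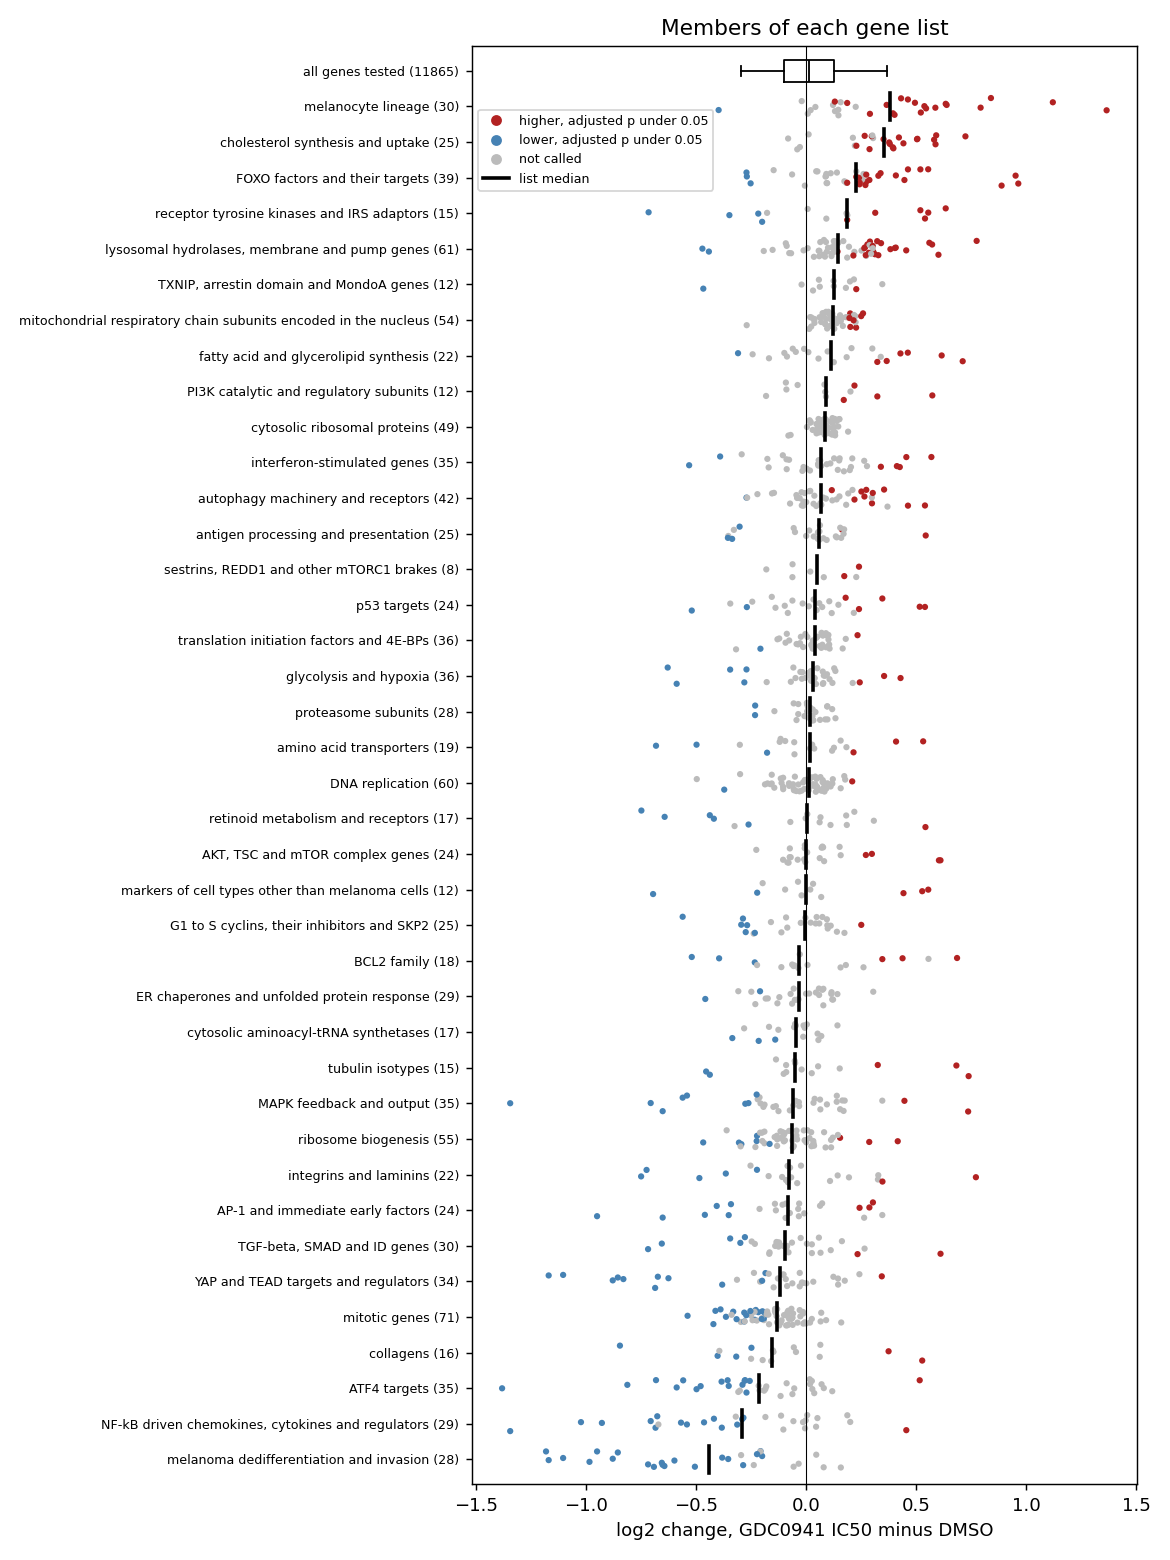
Log2 change (GDC0941 IC50 minus DMSO) of every tested member of 39 gene lists, ordered by list median (black bar), with members that rose in red, those that fell in blue and the rest in grey. The number tested stands in brackets, and the box at the top gives the quartiles of all 11865 genes with whiskers at the 5th and 95th percentiles. Melanocyte (median 0.38) and cholesterol genes (0.35) stand at the top and dedifferentiation genes (-0.44) at the bottom.

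None of 49 cytosolic ribosomal protein genes passed the test in either direction (limma, 40 arrays), though 47 of the 49 changes were above 0 (median 0.09, largest RPS15 at 0.19). Under quantile normalization their median was 0.021, 2 rose and 1 fell, and without the degraded array 1 rose. Of 55 ribosome biogenesis genes 6 fell (10.9%), among them PNO1 (-0.47) and UTP20 (-0.31), beside 6.15% of all genes. In this list 3 rose (5.5%), among them IMP3 (0.42), beside 9.81% of all genes. The median was -0.06, and 18 of the 55 changes were above 0. Of these genes 2 fell without replicate 2 of GDC0941, and 3 without its replicate 4 or without replicate 1, 2 or 4 of DMSO. Of 36 translation factors EEF2K, the kinase of elongation factor 2, rose (0.23) and EIF2B3 fell (-0.21). Nuclear genes of the respiratory chain had 53 of 54 changes above 0 (median 0.12, against 0.01 over all genes). Their median was 0.0742 under quantile normalization and 0.0755 with the mean over probe sets. Of these 54 genes 7 rose and none fell, beside 9.81% and 6.15% of all genes. Among the 7 were SDHA (0.26), COX6B1 (0.25) and NDUFV1 (0.23). The number that rose was 15 without the degraded array and 1 without replicate 2 of DMSO. It was 3 without replicate 4 of GDC0941 and 12 without replicate 3 of DMSO. Of 28 proteasome subunits PSMD12 (-0.23) and PSMD11 (-0.23) fell and none rose, and 1 fell without replicate 1 or 2 of GDC0941 or replicate 1 or 2 of DMSO.

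Of 71 mitotic genes tested, 18 fell and none rose (median -0.13), beside 6.15% and 9.81% of all genes. The count was 27 without the degraded array and 11 without replicate 2 of GDC0941. MKI67, the proliferation antigen Ki-67, read 304, 176, 164 and 237 on the GDC0941 arrays, against 336, 285, 333 and 321 on the DMSO arrays (log2 change -0.54, SE 0.15, adjusted p = 0.011). Without replicate 2 or 3 of GDC0941 its adjusted p was 0.061 or 0.071. CENPE, a kinetochore motor, read 289.9, 252, 237 and 262 with GDC0941 and 354, 358, 312 and 357 with DMSO (log2 change -0.39, SE 0.07, adjusted p = 0.0002). CDCA3 (-0.42), KIF18A (-0.41), HJURP (-0.36), NCAPH (-0.33) and KIF23 (-0.32) fell. Of 60 DNA replication genes POLD2 rose (0.21) and MCM8 fell (-0.37), with a median of 0.01. Of 25 genes of the G1 to S step 6 fell, CCND1 with E2F7 (-0.29), E2F8 (-0.29), CDK6 (-0.27), FBXO5 (-0.27) and CDC25A (-0.23), and the inhibitor CDKN1C rose (0.25). Without replicate 4 of GDC0941, or without replicate 2 of DMSO, 3 of them fell. Of 24 p53 targets 5 rose and 2 fell. Among 15 tubulins TUBA1A (0.74), TUBB4A (0.68) and TUBG2 (0.33) rose, and TUBE1 (-0.45) and TUBA4A (-0.44) fell.

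Of 35 interferon-stimulated genes 5 rose and 2 fell, near the shares of all genes (9.81% and 6.15%), with ISG20 (0.57) and GBP2 (0.46) upward and GBP1 (-0.53) and OASL (-0.39) downward. Of 25 antigen presentation genes 2 rose, among them the class I activator NLRC5 (0.54), and 3 fell, HLA-DRB1 (-0.36), CD74 (-0.34) and TAP2 (-0.30), with 1 that rose without replicate 2 or 3 of GDC0941 or replicate 2 of DMSO. Of 29 endoplasmic reticulum chaperones and stress genes, the sensor kinase ERN1 (-0.46) and ERO1B (-0.21) fell and none rose. Of 16 collagens 4 fell, among them COL12A1 (-0.85), and 2 rose, COL3A1 (0.53) and COL9A3 (0.37), with 2 that fell without replicate 2 of GDC0941 and 1 that rose without replicate 4 of DMSO. Of 22 integrins and laminins 5 fell, among them LAMB3 (-0.75) and ITGA2 (-0.72), and 2 rose, ITGA9 (0.77) and ITGA10 (0.35), of which 1 was left without replicate 1 or 2 of GDC0941 or replicate 1, 2 or 4 of DMSO. Of 17 retinoid genes 5 fell and RXRG rose (0.54), and 3 fell without any 1 of the GDC0941 arrays or replicate 1 or 2 of DMSO. DHRS3, a reductase that returns retinaldehyde to retinol, read 483, 545, 502 and 498 on the GDC0941 arrays, against 801, 775, 779.6 and 845 on the DMSO arrays (log2 change -0.64, SE 0.13, adjusted p = 0.00041). TGM2 (-0.75), RARA (-0.44), RDH10 (-0.42) and ALDH1A3 (-0.26) fell too. Of the 12 markers of other cell types bright enough to test, PDGFRA, COL3A1 and DCN (0.44) rose and KDR (-0.70) and KRT18 (-0.22) fell. The part of other cell types in any result was not tested.

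The IC50 level was compared with the higher levels of GDC0941. Each level against DMSO uses the same 4 DMSO arrays, so their changes are given side by side. At IC90 2991 genes (25.2%) changed against DMSO and at max 5204 (43.9%), beside 1894 at IC50. TRPM1 changed by 1.37 at IC50, 1.63 at IC90 and 1.79 at max, and ASNS by -1.38, -1.56 and -1.59 at those levels. CCN2 fell by 1.17 at IC50 and by 0.95 at IC90, and at max its change was 0.29 and missed the threshold (adjusted p = 0.067). CCN1 followed the same course, with -1.10, -1.02 and 0.29. MGP rose by 1.08 at IC50 and 0.57 at IC90 and was below DMSO at max (-0.23, adjusted p = 0.016). JUN changed by -0.95, -0.71 and 0.001.

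**Figure D4:**
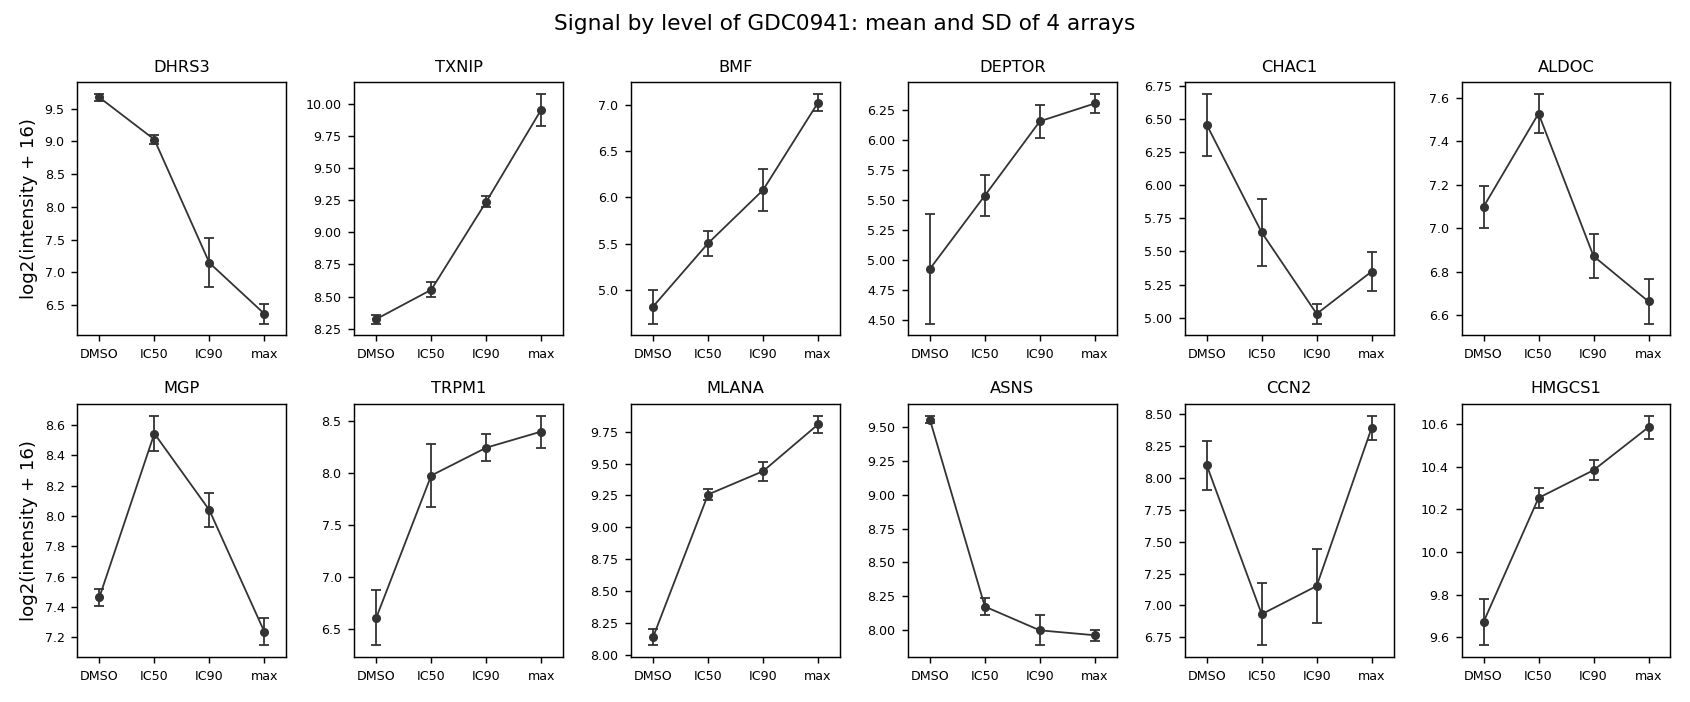
Mean log2(intensity + 16) with SD of 4 arrays for 12 genes with DMSO and with GDC0941 at IC50, IC90 and max, in that order from left to right. DHRS3, TXNIP and BMF moved further at each level, MGP was highest and CCN2 lowest at IC50.

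Set directly against IC90, IC50 differed in 262 genes (2.21%), 101 higher at IC50 (0.851%) and 161 lower (1.36%), and without the degraded array in 735 (6.19%), 336 higher (2.83%) and 399 lower (3.36%). The 262 became 145 and 152 without replicates 2 and 4 of IC50, and 162 and 158 without replicates 1 and 4 of IC90. DHRS3 showed the largest difference and averaged 9.03 ± 0.07 at IC50 and 7.14 ± 0.38 at IC90 (log2 scale, SD, n = 4 each, difference 1.89, adjusted p = 7.5e-13). TXNIP averaged 8.55 ± 0.06 at IC50 and 9.24 ± 0.04 at IC90 (difference -0.68, adjusted p = 5.4e-11). Both lay at IC50 between their DMSO and IC90 levels. FAM78B (0.90), FYB1 (0.70), ALDOC (0.66), FBXL13 (0.62), CHAC1 (0.61), the transporter ABCB5 (0.61) and ASB4 (0.61) were higher at IC50. ZNF469 (-0.66), REPS2 (-0.65), MTURN (-0.65), DEPTOR (-0.62), FAM228B (-0.60), BMF (-0.58) and TRAPPC6A (-0.57) were lower at IC50, and IRS1 (-0.35) and FGFR1 (-0.42) were lower too. Of 71 mitotic genes 10 were higher at IC50 than at IC90 and none lower (median difference 0.17, against -0.004 over all genes), and 22 were higher without the degraded array. None of the 30 melanocyte, 28 dedifferentiation or 25 cholesterol genes differed between IC50 and IC90 with 40 arrays by limma, beside 2.21% of all genes. At so low a share few members would be called in lists of this size. The missing calls do not show that the 2 levels act alike on these genes. Without the degraded array 2 melanocyte genes were higher, 3 dedifferentiation genes were higher and 3 lower, and 1 cholesterol gene was higher and 2 lower.

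BKM120, another inhibitor of class I PI3K, was compared at the level named IC50, for which the labels give no molar concentration either. GDC0941 and BKM120 at IC50 differed in 71 genes (0.598%), 17 higher with GDC0941 (0.143%) and 54 lower (0.455%), and in 490 (4.13%), 193 higher (1.63%) and 297 lower (2.50%), without the degraded array. The 71 became 32, 35, 118 and 18 without replicates 1, 2, 3 and 4 of GDC0941, 36, 27 and 47 without replicates 1, 2 and 4 of BKM120, and 52 without its replicate 3. DHRS3 averaged 9.03 ± 0.07 with GDC0941 and 9.96 ± 0.04 with BKM120 (difference -0.93, adjusted p = 0.00019). It fell against DMSO with GDC0941 (-0.64), and with BKM120 its change against the same DMSO arrays was 0.29 (adjusted p = 0.12). CXCL1 averaged 9.30 ± 0.12 with GDC0941 and 8.84 ± 0.17 with BKM120 (difference 0.46, adjusted p = 0.023). CGA (0.61), the smooth muscle actin ACTG2 (0.45), the neurofilament NEFL (0.43), ALDOC (0.41), SCRG1 (0.38), BEGAIN (0.35) and AIFM1 (0.33) were higher with GDC0941. TXK (-0.59), FAM78B (-0.58), ZNF623 (-0.58), EFCAB13-DT (-0.51), FAXDC2 (-0.49), JMY (-0.48), RDH13 (-0.47), KLHL24 (-0.43), CCNG2 (-0.40) and TXNIP (-0.22, adjusted p = 0.049) were lower. CCN2 averaged 0.47 higher with GDC0941 at an adjusted p of 0.073 with 40 arrays and 0.034 with 39. No melanocyte or cholesterol gene differed between these 2 treatments with 40 arrays, and 1 cholesterol gene was higher with GDC0941 with 39. That does not show that the compounds act alike on them.

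BEZ235, which inhibits mTOR as well as PI3K, was compared at its own IC50. With 40 arrays 4021 genes differed from GDC0941 at IC50 (33.9%), 1858 higher with GDC0941 (15.7%) and 2163 lower (18.2%), and without the degraded array, which belongs to this BEZ235 group, 3995 (33.7%), 2051 higher (17.3%) and 1944 lower (16.4%). A fit to the arrays of these 2 groups alone called 1020 genes. Differences of single genes from BEZ235 include the degraded array unless 39 arrays are named. Of 25 cholesterol genes 18 were higher with GDC0941 and 3 lower (median difference 0.52, against -0.02 over all genes), and 16 were higher and none lower with 39 arrays. ACAT2 averaged 10.50 ± 0.02 with GDC0941 and 9.18 ± 0.16 with BEZ235 (difference 1.32, adjusted p = 4.8e-18, and difference 1.26 with 39 arrays). HMGCS1 rose against DMSO with GDC0941 (0.58), and its change with BEZ235 against the same DMSO arrays was -0.37 (adjusted p = 9.5e-07). PIK3R3, higher with GDC0941 by 1.45 (adjusted p = 2.2e-09), changed by -0.88 against DMSO with BEZ235. The sestrins SESN1 (0.54), SESN2 (0.70) and SESN3 (0.88), stress-induced brakes of mTOR complex 1, were all higher with GDC0941, and so were 8 of 15 tubulins, among them TUBA1A (1.01). FGFBP3 (1.64), ALDOC (1.53), the lipid carrier MFSD2A (1.44), KCNG4 (1.42), MAMDC2 (1.34) and AASS (1.34, and 1.12 with 39 arrays) were the other large ones in that direction.

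In the opposite direction TXNIP was lower with GDC0941 (-1.29, adjusted p = 9.2e-20), and its relative ARRDC4 too (-1.23, and -0.94 with 39 arrays). NFE2L3 (-1.28), the matrix protease MMP9 (-1.21), LTBP2 (-1.20), ZNF358 (-1.17), KIZ (-1.12) and CTSF (-1.12) were lower as well. Of 28 dedifferentiation genes 18 were lower with GDC0941 and 1 higher (median difference -0.27), beside 18.2% and 15.7% of all genes. With 39 arrays 17 were lower, beside 16.4% of all genes. CCN2 was lower (-0.93, adjusted p = 9e-07, and -0.95 with 39 arrays) and IRS1 too (-1.01, adjusted p = 3.8e-14). Ribosomal protein genes were lower in 47 of 49 with 40 arrays (median difference -0.24), but in 24 with 39 arrays (median -0.17). ASNS did not pass with 40 arrays (0.17, adjusted p = 0.21) and did with 39 (adjusted p = 0.00073).

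**Figure D5:**
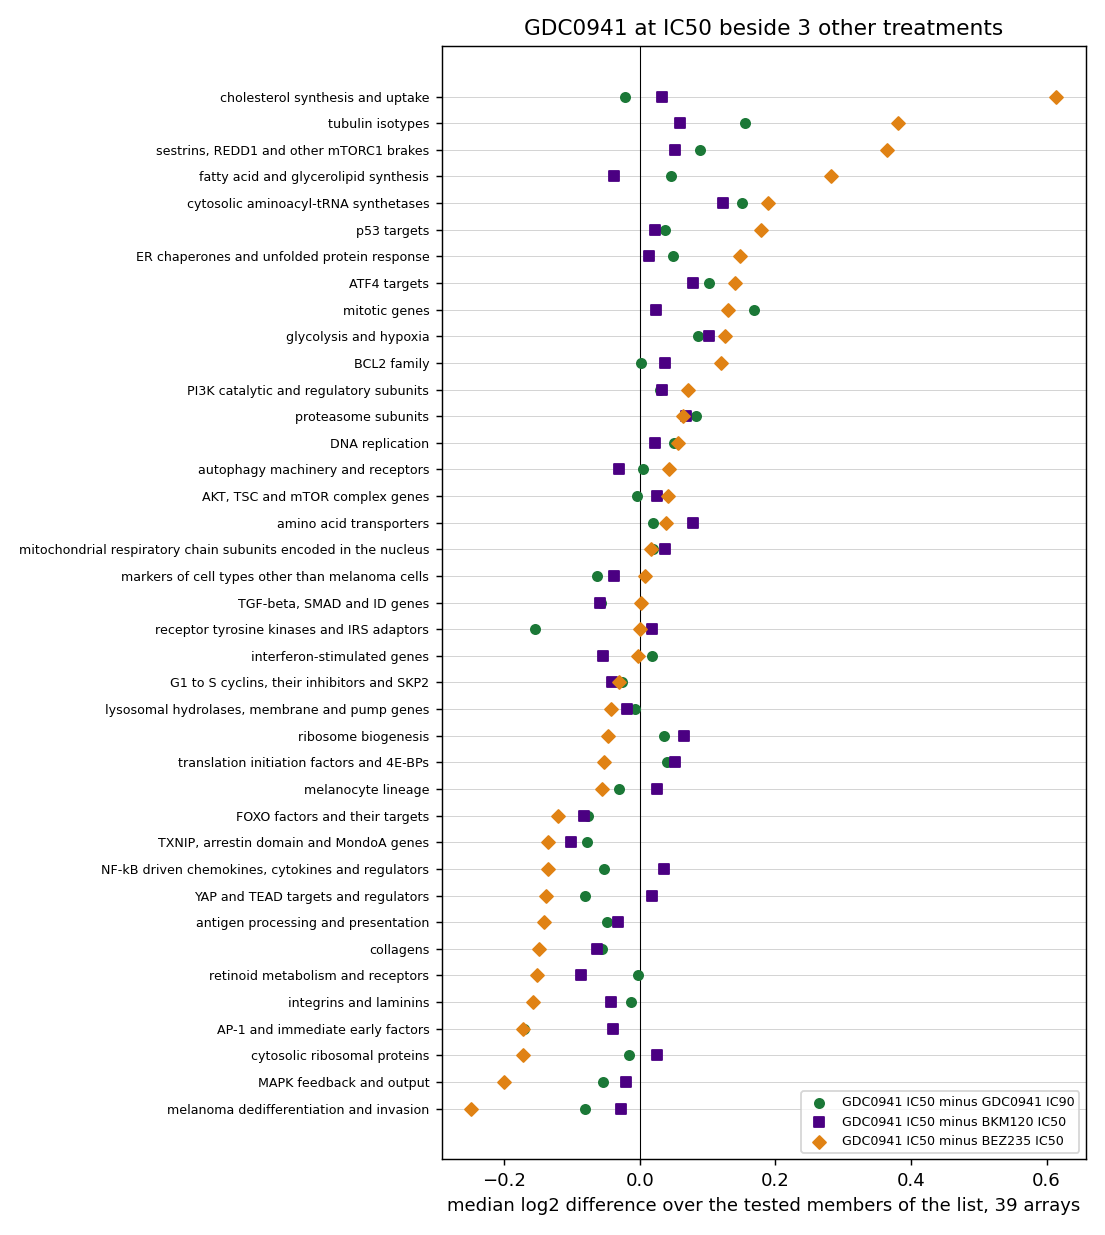
Median log2 difference over the tested members of each of 39 gene lists, with 39 arrays, for GDC0941 at IC50 minus GDC0941 IC90 (circles), minus BKM120 IC50 (squares) and minus BEZ235 IC50 (diamonds). The circles and squares lie between -0.17 and 0.17, and the diamonds reach 0.61 for cholesterol genes and -0.25 for dedifferentiation genes.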

How the data were processed

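A2058 cells, an established melanoma line, gave 40 one-colour arrays with 54675 probe sets, in 10 groups of 4 taken from the labels. The deposited values are linear intensity values made with MAS5, per the submitters' processing notes (no version stated there). Each array's mean without the outer 2% of values was 150.01 to 150.02. Exactly 1 gene symbol stood beside 41091 probe sets, several beside 1801 and none beside 11777, and 62 were controls.

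For each gene the brightest probe set by mean log2(intensity + 16) was used, cross-hybridising designs only where no other existed, and 11865 genes were tested, those with a mean signal over the 40th percentile (lowest 13.6). A model with 10 group means was fitted to the 40 arrays (30 residual degrees of freedom) with limma 3.58.1 in R 4.3.3, with a variance trend, and p-values were adjusted by Benjamini-Hochberg within each of 4 comparisons (GDC0941 at IC50 minus DMSO, GDC0941 IC90, BKM120 IC50 and BEZ235 IC50). The fit was tested on simulated data. Array quality was compared by 2-sided exact permutation tests.

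The members and the 39 gene lists were chosen with earlier results of these data known. Named genes had an adjusted p under 0.05 and groups that did not overlap, up to 20 in each direction against DMSO and 8 otherwise, plus up to 8 members of each list by size and all PI3K, BCL2 and melanocyte genes, called or not. The other array markers named in the quality check and the genes listed by motif are outside that rule. Alternatives changed the pseudocount (1 or 64), the filter (none or the 60th percentile), the normalization (quantile), the probe sets (mean) and the arrays used (39, 2 groups only, a replicate block, 1 left out). Promoter sequences are from RefSeq (GRCh38.p14), matched by symbol. Detection calls played no part.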

Additional observations from a re-analysis of the deposited data

Results flagged for a closer look

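Each group of 4 arrays was checked for an array far from the other 3, by Dixon's ratio of the gap to the range at the 95% level, in the 273 genes named above by the rule. Of 546 groups checked 30 stood out, where chance gives about 1 in 20. The array that stood apart is given below for each gene, with the lowest and highest of the other 3 arrays of its group and the adjusted p of GDC0941 at IC50 against DMSO without that array (limma).

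ACSS2 read 45.5 on DMSO replicate 1, against 38.3 to 39.4 (adjusted p = 0.0069 without it). ACTG2 read 1125 on DMSO replicate 2, against 1379 to 1399 (adjusted p = 0.0061 without it). ARRDC4 read 56.5 on GDC0941 replicate 2, against 66.3 to 67.6 (adjusted p = 0.11 without it, and the gene was then not called). ATF3 read 21.0 on GDC0941 replicate 2, against 16.3 to 16.9 (adjusted p = 0.0099 without it). BOK read 73.9 on DMSO replicate 3, against 80.5 to 80.9 (adjusted p = 0.28 without it). CCN2 read 141 on GDC0941 replicate 4, against 93.3 to 98.0 (adjusted p = 6.4e-09 without it). CENPE read 312 on DMSO replicate 3, against 354 to 358 (adjusted p = 0.00014 without it). COX6B1 read 1315 on DMSO replicate 2, against 1559 to 1599.6 (adjusted p = 0.18 without it, and the gene was then not called). DDIT3 read 72.7 on GDC0941 replicate 3, against 83.5 to 85.4 (adjusted p = 0.2 without it). DEPTOR read 32.7 on DMSO replicate 2, against 8.7 to 11.0 (adjusted p = 2.5e-05 without it).

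ITGA2 read 176 on GDC0941 replicate 1, against 127 to 129.6 (adjusted p = 1.5e-07 without it). JUN read 42.7 on GDC0941 replicate 1, against 32.3 to 33.4 (adjusted p = 1.6e-07 without it). MAPK3 read 273 on GDC0941 replicate 2, against 204 to 214 (adjusted p = 0.0095 without it). MCL1 read 919 on GDC0941 replicate 4, against 1004 to 1018 (adjusted p = 0.042 without it). MCL1 read 1181 on DMSO replicate 4, against 1156 to 1158 (adjusted p = 0.022 without it). MGP read 171 on DMSO replicate 2, against 156 to 158 (adjusted p = 7.8e-12 without it). NGFR read 49.9 on GDC0941 replicate 3, against 65.4 to 65.9 (adjusted p = 9.9e-07 without it). NHS read 251 on DMSO replicate 2, against 299 on each of the others (adjusted p = 6.3e-07 without it). NPRL2 read 732 on GDC0941 replicate 3, against 652 to 654 (adjusted p = 0.16 without it, and the gene was then not called). PIK3C3 read 738 on DMSO replicate 4, against 640.1 to 647 (adjusted p = 0.024 without it).

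PIK3CG read 416 on GDC0941 replicate 1, against 379 to 381 (adjusted p = 0.24 without it). PMEL read 1063 on GDC0941 replicate 4, against 1200.2 to 1226 (adjusted p = 2.4e-09 without it). PSMD12 read 1082 on DMSO replicate 2, against 1045 to 1047 (adjusted p = 0.00089 without it). RARA read 61.3 on GDC0941 replicate 4, against 80.5 to 84.1 (adjusted p = 0.18 without it, and the gene was then not called). RDH13 read 169 on GDC0941 replicate 4, against 226 to 231 (adjusted p = 0.25 without it). SLC7A11 read 1285 on DMSO replicate 2, against 1408 to 1435 (adjusted p = 1.9e-09 without it). SQLE read 564 on GDC0941 replicate 3, against 529 to 534 (adjusted p = 2.2e-06 without it). TM7SF2 read 103 on GDC0941 replicate 4, against 118 to 119 (adjusted p = 1.4e-05 without it). TXNIP read 317 on DMSO replicate 2, against 301 on each of the others (adjusted p = 0.004 without it). XG read 82.2 on GDC0941 replicate 2, against 11.5 to 15.1 (adjusted p = 0.043 without it).

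Outside the genes reported, 224 of 11721 probe sets with no gene symbol passed an adjusted p of 0.05 between GDC0941 at IC50 and DMSO, 100 higher and 124 lower, in a fit over all 54675 probe sets.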

How the results depend on the processing

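The count of 1894 genes changed by GDC0941 at IC50 became 2863 without the degraded array, which kept all 1894 calls, and stayed within 1.5 times under the other alternatives (1357 with a filter at the 60th percentile, 2310 with a fit to the 8 arrays, 1447 to 1768 with 1 array left out). The 23 genes changed at least 2-fold became 77 with a pseudocount of 1, 5 with 64, 12 with the stricter filter and 13 with the mean over probe sets (22 to 28 with 1 array left out). The 262 genes that differed from IC90 became 735 with 39 arrays, 446 with only the 2 groups and 145 to 253 with 1 array left out. The 71 that differed from BKM120 became 490, 350 and 18 to 118 in the same settings, 136 with quantile normalization and 37 with the mean over probe sets. Against BEZ235 the 4021 became 1020 with only the 2 groups and 3378 to 4337 with 1 array left out. The cause of these shifts was not tested. No quality measure passed its exact test with any array left out (0 of 7). With 1 array fewer there are too few arrangements for any measure to pass, so that count tells nothing about stability.

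Deviations of same-numbered GDC0941 and DMSO arrays from their group means had correlations of 0.073, 0.027, -0.153 and 0.110. Arrays with different numbers had -0.223 to 0.250. The labels do not say whether equal numbers share a culture batch, and so few correlations cannot decide it. The main fit left the arrays unpaired, and the replicate block gave 1864 calls. Of 228 named genes called, 162 were called under every alternative that measured them and none turned. With the mean over probe sets 28 of 224 lost the call. Among them were PLXNC1, DEPTOR, INSR, TXNIP, BCAN, PHLPP1, TRIB1, ACACB, EEF2K, ALDH1A3, TAP2, CDKN1C, COL3A1 and OASL. The others were ACTG2, BCL2L1, CD74, E2F7, ERBB3, FBXO5, GAB1, GBP2, IDS, NDUFV1, NEFL, NPRL2, PIK3C3 and SCRG1. With 1 array left out, 52 lost the call at least once: ABCB5, ACTG2, ARRDC4, ATF3, BACE2, BCL2L1, BNIP3, CARS1, CD74, CDCA3, COL9A3, COX6B1, E2F7, E2F8, EIF2B3, ERBB3, FAM228B, FBXO5, FOSL2, GAA, GAB1, GPR143, HLA-DRB1, IARS1, IDS, INSR, ITGA10, KIF23, MET, MKI67, NCAPH, NDUFV1, NEFL, NPRL2, NUPR1, PIK3C3, PIK3CB, POTEKP, PSMD11, RARA, RDH10, REPS2, SCRG1, SDHA, SESN1, SLC25A1, SLC7A8, SNAI2, TRIM63, TUBG2, UTP20 and VEGFA. Signs turned only in genes that were not called: with the mean over probe sets, AASS 0.085, BCL2L11 -0.012, MFSD2A -0.047, PIK3CD 0.081. With 1 array left out the changes were BAK1 -0.088 to 0.0061, BCL2 -0.078 to 0.0075, INPP5E -0.015 to 0.16, PAX3 -0.085 to 0.053, PIK3CD -0.080 to 0.0072, ZNF358 -0.055 to 0.18. Several bright probe sets measured 125 of the 273 named genes, and in 13 they differed in sign, among them GBP2 (-0.25 and 0.46) and IDS (-0.47 to 0.15). Signal near background limits the dim genes, and 4 arrays a group limit all.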
